A study of Mus musculus with 19 samples.

Results

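The 9 genes described here are *Mbp*, *Mobp*, *Mag*, *Mog*, *Cnp*, *Cldn11*, *Mal*, *Ugt8a* and *Myrf*, a set of myelin and oligodendrocyte genes. They were taken by name, as the rows of the count table whose Ensembl identifier carries that symbol in the GENCODE M21 annotation. They are 9 of 41128 genes in the table, and all 9 were among the 16841 genes with enough counts to be tested. The question was whether their messenger RNA differed between mice with the SCA17 knock-in (KI) and their wild-type controls (WT) in each brain region, and how their levels differed between regions of WT mice.

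All libraries came from C57BL/6 mice of 3 months of age. KI mice carry in the germline a *Tbp* allele with an expanded polyglutamine tract, the mutation of spinocerebellar ataxia type 17, made by crossing floxed TBP mice with EIIa-Cre mice, so every cell type carries the allele. WT mice were age-matched. Whole tissue was taken from cerebellum (CB, 4 KI and 3 WT libraries), striatum (STR, 3 and 3) and prefrontal cortex (PFC, 3 and 3), which makes 19 libraries. The 3 to 4 mice of each genotype may have given more than 1 region each. The expanded repeat cannot be read from counts per gene, and a whole-tissue library cannot tell apart fewer oligodendrocytes and less messenger RNA per oligodendrocyte.

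In the brain, oligodendrocytes wrap axons in a spiral of compacted membrane that insulates them and supports them metabolically. The wrapped membrane needs proteins that hold its layers together, surface proteins that face the axon or the outside, enzymes that make its special lipids, and a transcription factor that turns these genes on when the cell matures. Myelin is dense in white matter tracts, which cross the striatum as bundles and form the core of the cerebellum.

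Library totals ran from 10639110 to 17431284 counts, with a median of 15082703. Every member had at least 188 counts in every library, the lowest being *Cldn11* in PFC KI replicate 1. Levels are given as CPM (counts scaled to the library total) after TMM scaling. This sets a factor for each library from a mean ratio to a reference library, leaving out genes with extreme ratios or levels. Levels of different genes were compared only per kilobase of exon. Markers of region followed the labels, since the 4 striatal neuron markers summed to between 1889.6 and 3903 CPM in STR and to at most 382 CPM elsewhere, but some libraries stood apart. Choroid plexus markers, 8 genes, summed to 5049.8 CPM in CB KI replicate 3 and 2032 CPM in CB WT replicate 1 and to at most 45.2 CPM in the other CB libraries, and to between 1588 CPM (STR WT replicate 3) and 9154 CPM in STR. The 3 cortical neuron markers summed to 42.6 CPM in STR WT replicate 3 and to 2.45 CPM in STR WT replicate 2. *Pmp2*, a marker of Schwann cells, the myelinating cells of peripheral nerve, was at 0 counts in 15 of 19 libraries.

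No member passed the test for a difference between KI and WT in any region. The edgeR quasi-likelihood test with Benjamini-Hochberg adjustment over all tested genes called 0 of 9 members in CB, where it called 0.831% of all genes, 0 of 9 in STR (0.582% of all genes) and 0 of 9 in PFC (0.107% of all genes). None reached an unadjusted p under 0.05 in a region, and DESeq2 also called 0 of 9 in each. The median log2 fold change of the 9 genes was −0.11 in CB, 0.16 in STR and −0.30 in PFC, beside medians of 0.01, −0.01 and 0.00 over all tested genes. The intervals were wide. For *Mbp* in CB the 95% interval of the log2 difference ran from −0.84 to 0.62, so these libraries do not exclude a change of moderate size.

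*Mbp* encodes myelin basic protein, which draws the inner faces of the membrane together, and it was by CPM per kilobase the most abundant member in every group. In CB it stood at 4309, 3084, 2853 and 4369 CPM in KI and at 4419.6, 3458 and 3939 CPM in WT. In STR it stood at 11872, 5487 and 10515 CPM in KI and at 9629, 8926 and 6411 CPM in WT. In PFC it stood at 1909.7, 3279 and 5243 CPM in KI and at 2362, 6613 and 3882 CPM in WT. KI and WT overlapped in each region, and within a group the highest STR KI and PFC libraries exceeded the lowest by over 2-fold. The log2 differences were −0.11 (SE 0.344), 0.16 (SE 0.369) and −0.30 (SE 0.369) in CB, STR and PFC, with edgeR adjusted p of 0.964, 0.972 and 0.975.

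*Mobp*, myelin-associated oligodendrocyte basic protein, is a second small basic protein of compact myelin (ENSMUSG00000032517, GRCm38 chr9:120149707-120181484, plus strand). In CB it stood at 883, 671, 693 and 919 CPM in KI and at 988, 919.8 and 1016 CPM in WT. All 4 KI libraries were below all 3 WT libraries, with KI replicate 4 and WT replicate 2 nearly level, and *Mobp* was the only member whose CB groups did not overlap (1 of 9, beside 12.3% of all genes in either direction and 6.47% lower). In STR the KI libraries stood at 3285, 1178 and 2567 CPM and the WT libraries at 3244, 2745 and 1929 CPM. In PFC they stood at 443, 691 and 1329 CPM in KI and at 689, 1847 and 1095 CPM in WT. These overlapped, as did the groups of all other members in STR and PFC (0 of 9 apart, beside 14.1% and 8.69% of all genes). The log2 difference of *Mobp* was −0.30 (SE 0.366, adjusted p 0.866) in CB, −0.17 (SE 0.393, adjusted p 0.971) in STR and −0.56 (SE 0.394, adjusted p 0.919) in PFC by edgeR. Leaving out 1 library moved the PFC value to between −1.09 (without PFC KI replicate 3) and −0.12 (without PFC WT replicate 2), and it was −0.26 without PFC KI replicate 1 and −0.84 without PFC WT replicate 1. Exons of *Mobp* share 79 bases with *Gm38642*, a processed transcript that has no row in the count table.

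*Mag* and *Mog* encode surface glycoproteins, the first on the membrane next to the axon and the second on the outermost layer of the sheath. *Mag* stood at 193, 189.8, 173 and 248 CPM in the CB KI libraries and at 171, 195 and 183 CPM in the WT libraries. In STR it stood at 510.1, 236 and 414 CPM in KI and at 379, 341 and 269 CPM in WT, and in PFC at 89.9, 147 and 204 CPM and at 91.6, 276 and 143 CPM. Groups overlapped in each region. Its log2 differences were 0.14, 0.23 and −0.22 in CB, STR and PFC, with SE between 0.319 and 0.342. *Mog* ranged from 41.8 to 238 CPM over all libraries, with log2 differences of −0.02, 0.42 and −0.02, of which the STR value had an unadjusted p of 0.181. *Mog* lies 21.5 Mb from *Tbp* on chromosome 17, the chromosome of the altered allele.

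*Cnp* encodes the nucleotide phosphodiesterase of the cytoplasmic channels that run through myelin, and it sits on chr11:100574904-100591729, plus strand (ENSMUSG00000006782, GRCm38). In CB it stood at 554, 509.7, 442 and 577 CPM in KI and at 417, 456 and 504 CPM in WT. In STR it stood at 1124, 609 and 911 CPM in KI and at 764, 671 and 645 CPM in WT, and in PFC at 240.3, 373 and 482 CPM and at 249.7, 520.3 and 366 CPM. In CB 3 of the 4 KI libraries were above all 3 WT libraries, and the groups overlapped in each region. Its log2 differences were 0.18 (SE 0.24, adjusted p 0.882), 0.35 (SE 0.256, adjusted p 0.807) and −0.05 (SE 0.256, adjusted p 0.999) by edgeR. Exons of *Dnajc7* on the opposite strand overlap 154 of the *Cnp* exon bases, 4.23% of them. The library kit does not keep strand, so reads there cannot be assigned to 1 of these genes by strand.

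*Mal*, a small membrane protein that sorts myelin components, lies on chr2:127633226-127656695, minus strand (ENSMUSG00000027375, GRCm38). In CB it stood at 106, 67.2, 75.0 and 106 CPM in KI and at 91.9, 93.1 and 106 CPM in WT. In STR it stood at 372, 176 and 336 CPM in KI and at 354, 299 and 262 CPM in WT, and in PFC at 64.1, 114 and 174 CPM and at 109.8, 242 and 146 CPM. The groups overlapped, and the log2 differences were −0.13, −0.05 and −0.50, with SE from 0.314 to 0.336. Without 1 library the PFC value of *Mal* lay between −0.89 (without PFC KI replicate 3) and −0.12 (without PFC WT replicate 2). *Cldn11*, the tight junction protein between the layers, was lower in level, between 11.2 and 63.5 CPM over all libraries, with log2 differences of −0.24, 0.14 and −0.36. *Ugt8a*, the enzyme that makes galactosylceramide, the signature lipid of myelin, ranged from 30.8 to 174 CPM, with log2 differences of −0.31, 0.02 and −0.20. *Myrf*, the transcription factor that switches on myelin genes in the maturing cell, ranged from 17.4 to 82.7 CPM, with log2 differences of 0.09, 0.24 and −0.33. The adjusted p of these 4 genes lay at 0.809 or above in all 3 regions.

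**Figure D1:**
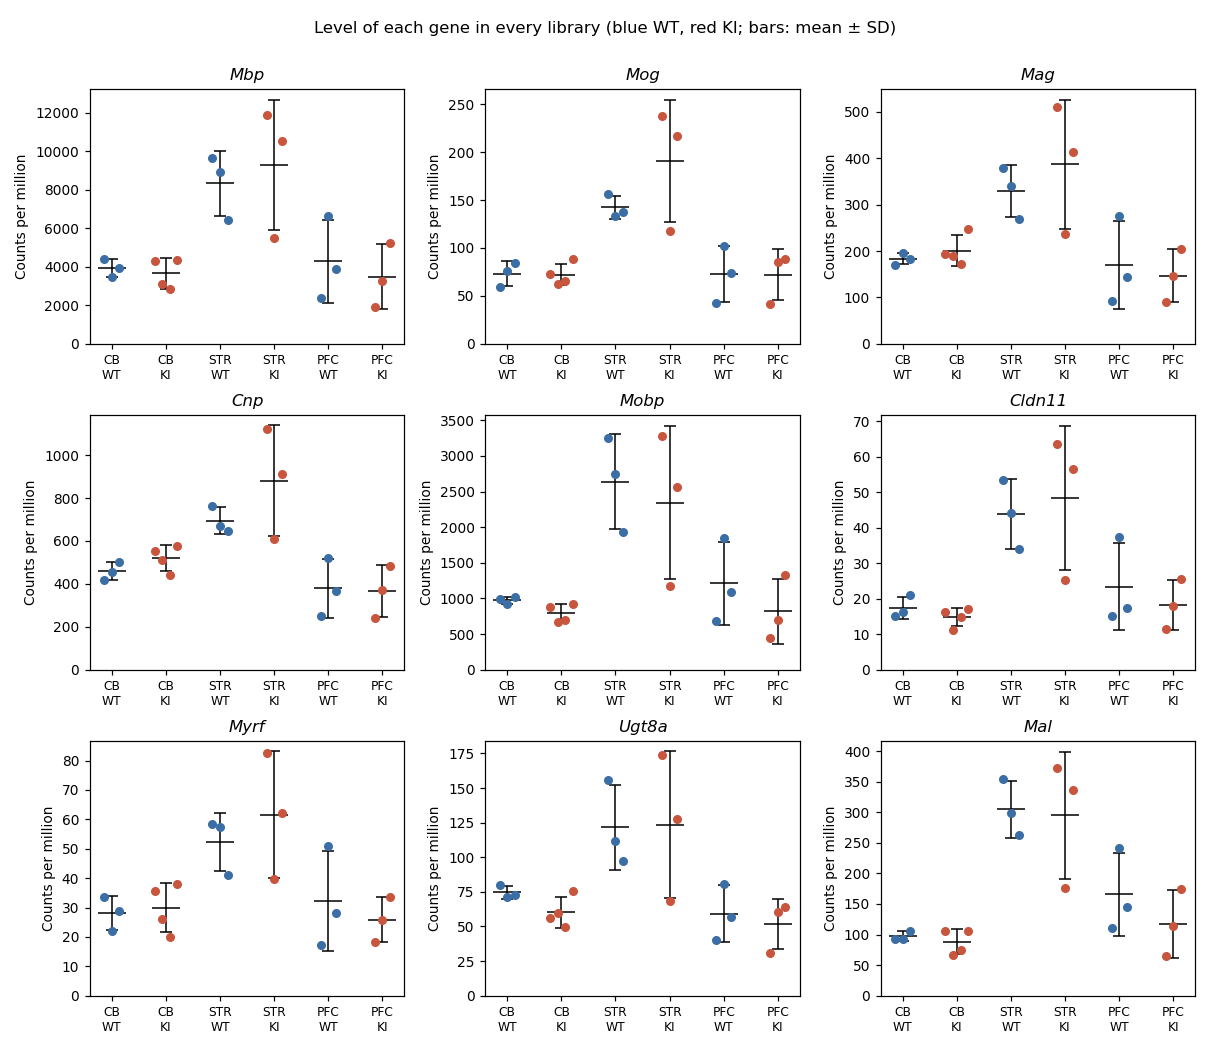
Level of each member in CPM (linear axis from 0) in every library, by region and genotype, with blue points for WT, red points for KI and black bars for the mean and SD. The STR means lie highest for every member, the KI and WT points of a region overlap except for *Mobp* in CB, and STR KI replicate 2 lies lowest of its group in all 9 panels.

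The effect of genotype did not differ detectably between regions for any member. The edgeR tests of the difference in KI effect called 0 of 9 members for CB minus STR (0.0119% of all genes), for CB minus PFC (0.0178%) and for STR minus PFC (0%), and the smallest unadjusted p among these 27 tests was 0.27. All 9 members had a higher KI effect in STR than in PFC, with log2 differences of 0.22 to 0.56, but each 95% interval covered 0. The mean effect over the 3 regions called 0 of 9 (1.35% of all genes) by edgeR. It was furthest from 0 for *Mobp* at −0.34 (95% interval −0.81 to 0.12), then *Mal* at −0.23 and *Ugt8a* and *Cnp* at −0.16 and 0.16.

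The members moved together from library to library within a group. Deviations from the group mean on the log2 CPM scale were compared over the 19 libraries, and each member's deviations had a Pearson r with the mean of the other 8 of between 0.905 (*Myrf*) and 0.976 (*Mobp*). These are descriptions over libraries that share scaling, and same-numbered STR and PFC libraries may share a mouse. In PFC WT all 9 members were highest in replicate 2 and lowest in replicate 1, and in PFC KI all 9 were highest in replicate 3 and lowest in replicate 1. In STR KI all 9 were highest in replicate 1 and lowest in replicate 2, and in STR WT all 9 were highest in replicate 1 and 8 were lowest in replicate 3. The mean deviation of the 9 genes ran from −0.68 in STR KI replicate 2 to 0.68 in PFC WT replicate 2. CB libraries stayed between −0.23 and 0.28.

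Markers of neighbouring tissue differed between the libraries of a group as well. In PFC KI the library with the highest members, replicate 3, held the fewest striatal neuron markers (69.3 CPM summed over 4 genes, against 254 and 382 CPM in the other two). In PFC WT the library with the highest members held 116 CPM of them, against 122 and 242 CPM. In STR the lowest KI library, replicate 2, held the most striatal markers of its group (2777 CPM, against 1889.6 and 2193 CPM). STR WT went the other way, since replicate 3, with the lowest members, held the fewest striatal markers (3336 CPM, against 3488 and 3903 CPM). Their part in the spread of the members was not tested.

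**Figure D2:**
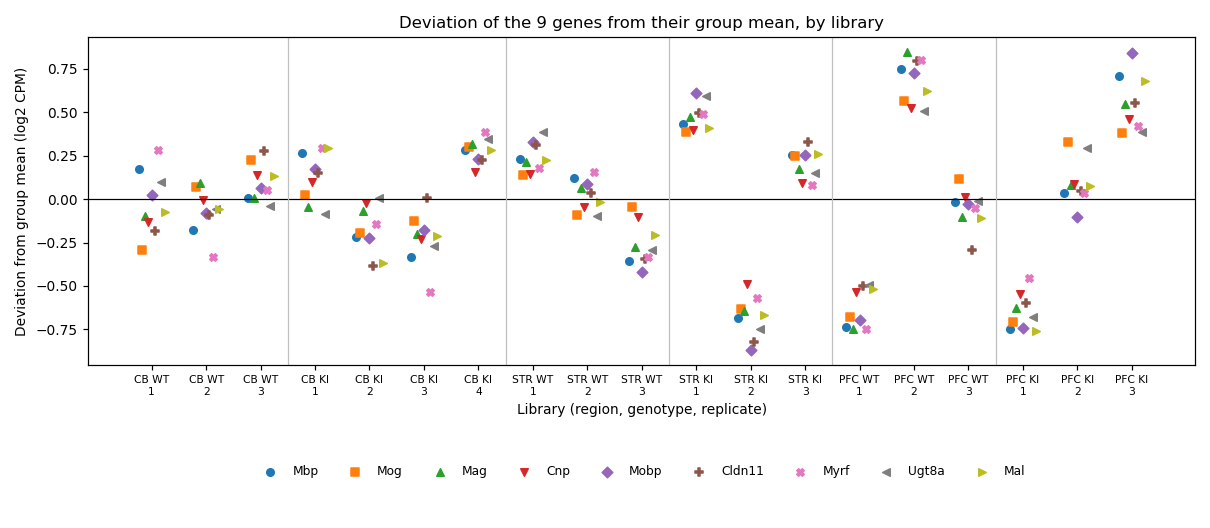
Deviation of each of the 9 members from the mean of its own group, in log2 CPM, for each of the 19 libraries ordered by region, genotype (WT first) and replicate. Symbols of all 9 genes rise and fall together, with PFC WT replicate 2 and PFC KI replicate 3 above 0 for every gene and STR KI replicate 2, PFC WT replicate 1 and PFC KI replicate 1 below 0 for every gene.

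Genes of the oligodendrocyte lists were prominent among those with the most similar pattern. Among 10629 genes with a mean of at least 10 CPM, the highest r with the members' mean deviation outside the set belonged to *Plekhh1* (0.989), *Tspan2* (0.978), *Bcas1* (0.976), *Gpr37* (0.972) and *Prr5l* (0.970). *Fa2h* (0.966), which hydroxylates the fatty acids of myelin lipids, *Plekhb1* (0.955), *Evi2a* (0.951) and *Qdpr* (0.950) were also among the 10 highest. Of those 10, 7 are in the oligodendrocyte lists used here, and 27 genes outside the set had r over 0.9.

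Because the members share most of their spread, ratios between them within a library are less noisy than their levels. 3 of the 36 ratios that 9 genes allow were lower in every KI library than in every WT library in all 3 regions, which is 8.33% of the pairs, beside 1.00% of the 300 pairs among 25 other genes of mature oligodendrocytes. They were *Mobp* to *Cnp*, *Mobp* to *Mag* and *Mal* to *Cnp*, and they are descriptions with no test, since the pairs were picked after their values were seen and share genes. Within single regions, 16.7% (CB), 27.8% (STR) and 22.2% (PFC) of the member ratios did not overlap between genotypes, against 14.0%, 17.3% and 17.7% of the other pairs.

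The *Mobp* to *Cnp* ratio per kilobase in CB was 0.847, 0.700, 0.833 and 0.847 in KI and 1.26, 1.07 and 1.07 in WT. In STR it was 1.55, 1.03 and 1.50 in KI and 2.26, 2.17 and 1.59 in WT, and in PFC 0.979, 0.984 and 1.46 against 1.47, 1.89 and 1.59. The nearest KI and WT values were close in STR and PFC, where 1 library in each genotype nearly met. The means were 0.807 ± 0.0715 (SD, n = 4) against 1.13 ± 0.108 (n = 3) in CB, 1.36 ± 0.289 against 2.01 ± 0.363 in STR and 1.14 ± 0.278 against 1.65 ± 0.215 in PFC (n = 3 in each). The *Mal* to *Cnp* ratio was 0.222 ± 0.0348 against 0.277 ± 0.0107 in CB, 0.432 ± 0.0524 against 0.574 ± 0.0382 in STR and 0.408 ± 0.0620 against 0.569 ± 0.0437 in PFC. The *Mobp* to *Mag* ratio was 2.35 ± 0.269 against 3.18 ± 0.330, 3.49 ± 0.461 against 4.71 ± 0.418 and 3.20 ± 0.593 against 4.33 ± 0.311 in the same order.

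**Figure D3:**
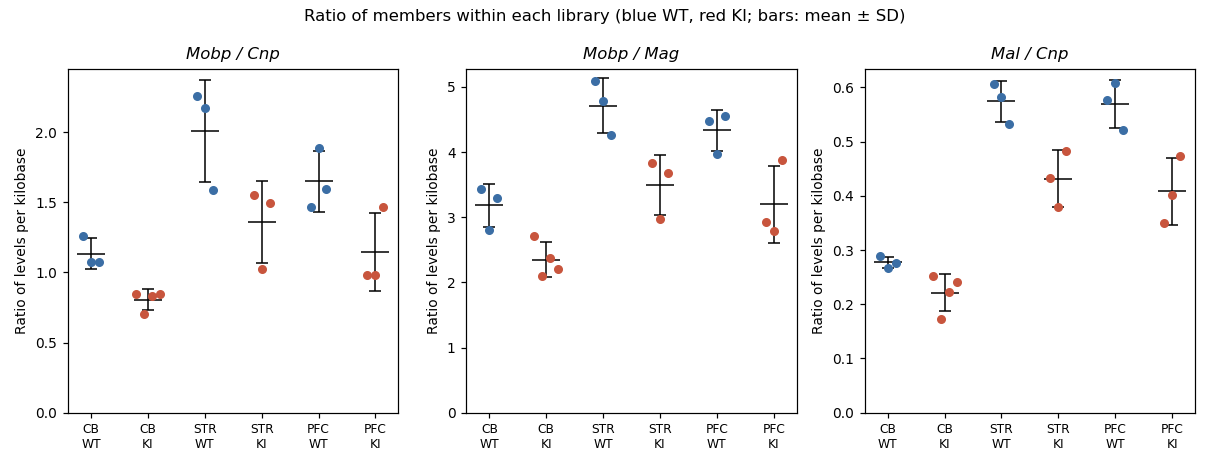
Ratio of *Mobp* to *Cnp*, *Mobp* to *Mag* and *Mal* to *Cnp* within each library, each gene as its level per kilobase of exon, by region and genotype (blue WT, red KI, bars mean and SD, axes from 0). In each panel and region every red point lies below every blue point, with the gap between groups narrowest for *Mobp* to *Cnp* in PFC.

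The bases before the start sites of *Mobp*, *Cnp* and *Mal* differ in the motifs they hold. Shown are the 250 bases before the RefSeq start (GRCm38.p6), 5′ to 3′ on the strand of the gene, in lower case with motif matches on either strand in capitals. The Sox motif was searched as ACAAAG. The GC box was searched as GGGCGG. The TATA box was searched as TATAAA. The Myrf-type motif was searched as CTGGCAC and, as its second form, CTGGTAC. They are shown because the ratios of *Mobp* to *Cnp* and of *Mal* to *Cnp* set these genes against each other. *Mag*, from the *Mobp* to *Mag* ratio, is not shown. Its windows 1 and 2 held a Sox motif and a Myrf-type motif each, and its window 3 held none. A link between motifs and ratios was not tested.
*Mobp* (chr9:120149492-120149741, plus strand): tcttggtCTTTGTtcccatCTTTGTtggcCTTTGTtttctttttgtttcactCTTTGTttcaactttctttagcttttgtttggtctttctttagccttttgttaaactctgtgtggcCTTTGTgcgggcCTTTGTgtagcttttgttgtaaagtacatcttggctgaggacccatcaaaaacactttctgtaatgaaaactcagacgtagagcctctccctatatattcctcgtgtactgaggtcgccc
*Cnp* (chr11:100574689-100574938, plus strand): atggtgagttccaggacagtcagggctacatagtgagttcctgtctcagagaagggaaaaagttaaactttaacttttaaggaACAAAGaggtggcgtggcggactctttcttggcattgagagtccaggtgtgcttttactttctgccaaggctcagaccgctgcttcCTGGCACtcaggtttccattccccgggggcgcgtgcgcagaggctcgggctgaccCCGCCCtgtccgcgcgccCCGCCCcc
*Mal* (chr2:127656696-127656945, minus strand): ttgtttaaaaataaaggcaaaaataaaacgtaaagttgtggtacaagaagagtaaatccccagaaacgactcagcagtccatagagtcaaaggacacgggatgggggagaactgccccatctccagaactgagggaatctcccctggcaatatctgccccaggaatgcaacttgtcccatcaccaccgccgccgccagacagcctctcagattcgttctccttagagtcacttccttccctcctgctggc

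*Mobp* held 6 matches to the Sox motif, all read on the opposite strand, at positions −243 to −120 relative to the start site. *Cnp* held 1 Sox motif, 1 Myrf-type motif and 2 GC boxes, and *Mal* held none of the 4. Of the 7 members with a RefSeq window, 3 held the Sox motif (*Mag*, *Cnp* and *Mobp*), 3 the Myrf-type motif (*Mog*, *Mag* and *Cnp*), 2 a GC box (*Cnp* and *Ugt8a*) and 0 a TATA box. Among all 32851 windows, 16.5%, 5.93%, 32.7% and 12.4% held these motifs. A member was counted when any of its windows held the motif (*Mag* has 3), whereas these shares are over single windows. A match is a run of letters, not a shown binding site.

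To compare genotypes at the same amount of oligodendrocyte RNA, the mean log2 CPM of the 25 other mature oligodendrocyte genes in each library was added to the edgeR fit as a covariate. This fit was chosen after the data had been seen. With it the SE of the members fell to between 0.0521 and 0.101 for the mean over regions, from 0.145 to 0.222 without it. *Mobp* was then lower in KI over the 3 regions, with a log2 difference of −0.35 (SE 0.0683, 95% interval −0.49 to −0.21, edgeR adjusted p 0.0130), and it was the only member called (1 of 9, beside 1.69% of all genes, 0.718% lower). In single regions *Mobp* differed by −0.30 (CB), −0.39 (STR) and −0.36 (PFC), none of which passed adjustment (adjusted p 0.303, 0.250 and 0.669), and 0 of 9 members were called in any region, where 1.09%, 0.623% and 0.107% of all genes were called.

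The remaining members lay on either side of 0 at equal oligodendrocyte level. *Mal* differed by −0.23 (SE 0.0736, adjusted p 0.142) and *Ugt8a* by −0.16 (SE 0.0761, adjusted p 0.371), while *Cnp* differed by 0.17 (SE 0.0521, adjusted p 0.133) and *Mog* by 0.14 (SE 0.0722, adjusted p 0.430). *Cldn11*, *Mbp*, *Myrf* and *Mag* lay between −0.14 and 0.08. Unadjusted edgeR p under 0.05 were those of *Mobp*, *Cnp*, *Mal* and *Ugt8a*. No share over all genes is set beside them, so they are not read as an excess among the members.

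The *Mobp* call held in 17 of the 19 fits that each left out a library. It was lost without CB WT replicate 2 (−0.35, adjusted p 0.0519) and without PFC WT replicate 1 (−0.31, adjusted p 0.0588). With the other 8 members as the covariate instead, *Mobp* differed by −0.32 (adjusted p 0.00724), and *Cnp* was called as well, 0.23 higher in KI (adjusted p 0.0103). The covariate list also contains genes that moved. At equal level the carbonic anhydrase *Car2* was lower in KI (log2 difference −0.38, adjusted p 0.00116) and the tetraspanin *Tspan2* was lower (−0.29, adjusted p 0.0247), and outside it *Enpp6*, which marks newly formed oligodendrocytes, was higher (0.45, adjusted p 0.00794). *Enpp2*, a list gene that choroid plexus also expresses, ranged from 229.99 to 8435 CPM over the libraries.

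**Figure D4:**
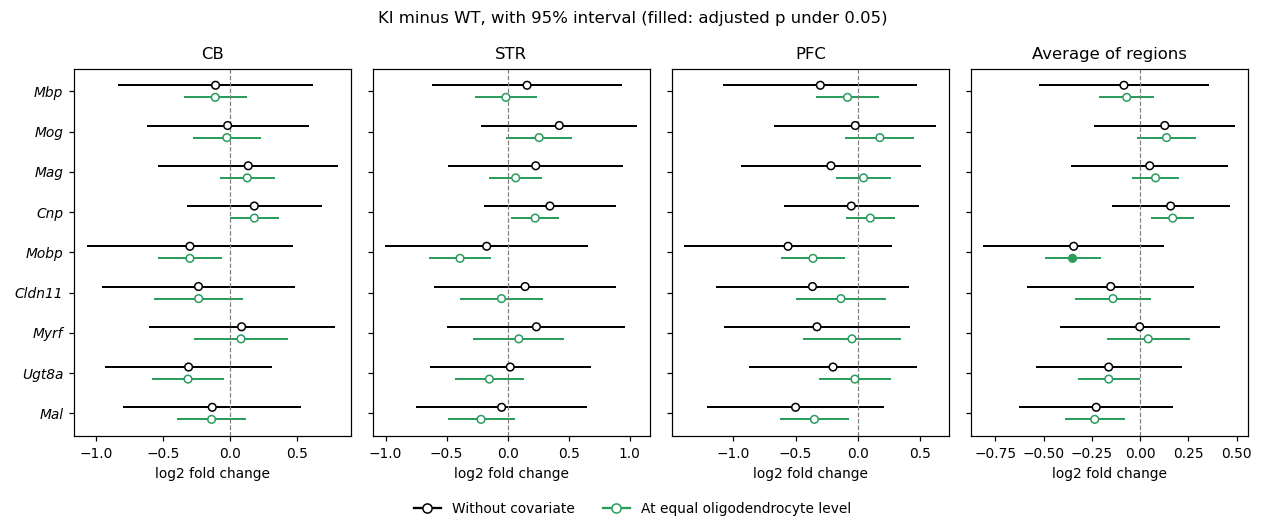
KI minus WT log2 fold change of each member with its 95% interval in CB, STR, PFC and their average, without a covariate (black) and at equal oligodendrocyte level (green), filled where the adjusted p is under 0.05. The green intervals are narrower, and the only filled point is *Mobp* in the average of regions at −0.35.

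In WT mice the members were highest in STR. Of the 9, 7 were lower in CB than in STR (56.5% of all genes were called, 28.7% lower), and all 9 lay lower without overlap between these groups, beside 63.9% of all genes without overlap and 31.8% lower without overlap. *Mal* had the largest difference at −1.65 (SE 0.342, edgeR adjusted p 0.000586), followed by *Mobp* at −1.44 (SE 0.400, adjusted p 0.00577), *Cldn11* at −1.33 and *Mbp* at −1.08. *Mog*, *Myrf* and *Mag* differed by −0.96, −0.89 and −0.85. *Cnp* (−0.59, adjusted p 0.0576) and *Ugt8a* (−0.70, adjusted p 0.0680) did not pass in this fit, but both passed by DESeq2 (adjusted p 0.0284 and 0.0368) and with the libraries of the comparison alone (edgeR adjusted p 0.00137 and 0.00769). The count was 4 without CB WT replicate 2, CB WT replicate 3 or STR WT replicate 1, where *Mbp*, *Mag* and *Myrf* were the calls lost. *Mag* kept its call in 11 of 19 fits without a library and lost it after correction for GC content and gene length (edgeR adjusted p 0.0540). *Myrf* kept its call in 15 of 19 and lost it in the fit with the replicate block across regions (−0.86, edgeR adjusted p 0.0653). *Mal*, *Mobp* and *Cldn11* were called in all 19.

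Between STR and PFC, 5 of 9 members were higher in STR (30.5% of all genes were called, 14.0% higher). Without overlap were *Mog*, *Cnp*, *Mobp*, *Ugt8a* and *Mal*, beside 41.8% of all genes. The members called were *Mobp* (1.12, SE 0.397, edgeR adjusted p 0.0406), *Ugt8a* (1.04), *Mog* (0.96), *Mag* (0.95) and *Cnp* (0.87). *Mbp* at 0.96, *Cldn11* at 0.91, *Mal* at 0.88 and *Myrf* at 0.70 did not pass, with adjusted p from 0.0563 to 0.147. The 3 PFC WT libraries differed among themselves by 2.00-fold to 3.02-fold in each member, and the count depended on them. It was 0 without PFC WT replicate 1, 9 without PFC WT replicate 2 and 1 without PFC WT replicate 3. It was also 0 without STR WT replicate 1, 3 without STR WT replicate 2 and 8 without STR KI replicate 2. In a paired fit of STR and PFC libraries alone, with the replicate number as a block, the count was 0, with adjusted p of the 5 genes from 0.0513 to 0.0854 and log2 differences of 0.93 to 1.20.

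Between CB and PFC the test called 0 of 9 members (52.0% of all genes), with *Mal* nearest at −0.77 (SE 0.337, edgeR adjusted p 0.0647), the only member without overlap (59.1% of all genes), and the others from −0.42 (*Cldn11*) to 0.34 (*Ugt8a*). DESeq2 called 0 as well, and 1 member, *Mal*, had an unadjusted p under 0.05. *Mal* passed with the libraries of the comparison alone (−0.78, adjusted p 0.0361) and without PFC KI replicate 1 or 3, PFC WT replicate 1 or STR KI replicate 2. STR had the highest WT mean for every member, and the CB and PFC libraries of the 8 members other than *Mal* overlapped.

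By level per kilobase in WT mice, *Mbp* led in each region, at 465 ± 56.8 (SD, n = 3) CPM per kilobase in CB, 983 ± 200 in STR and 506 ± 254 in PFC. *Mobp* and *Cnp* followed, with *Mobp* at 142 ± 7.23 in CB, 385 ± 96.9 in STR and 177 ± 85.8 in PFC and *Cnp* at 126 ± 11.9, 191 ± 17.2 and 104 ± 37.3. In CB WT the *Mobp* and *Cnp* means were close and in STR they were far apart. *Mal* stood at 35.0 ± 2.89 in CB, 109.8 ± 16.7 in STR and 59.7 ± 24.5 in PFC, and *Myrf* was the lowest member in each region, at 3.29 ± 0.691, 6.10 ± 1.14 and 3.76 ± 2.00.

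With the level of the other mature oligodendrocyte genes as covariate, 3 of 9 members were lower in CB than in STR (51.8% of all genes called, 26.1% lower), a share near that of all genes, namely *Mal* (−0.88, edgeR adjusted p 0.000135), *Cldn11* (−0.51) and *Mobp* (−0.48). Against PFC, 4 of 9 were lower in CB (50.4% of all genes called, 26.0% lower), namely *Mal* (−1.07, adjusted p 7.53e-06), *Cldn11* (−0.71), *Mobp* (−0.65) and *Mbp* (−0.42). Between STR and PFC 0 of 9 were called (22.2% of all genes), with 0 at an unadjusted p under 0.05. With the other 8 members as covariate only *Mal* of these genes was called in both, at −0.67 against STR (adjusted p 0.000157) and −0.76 against PFC (adjusted p 5.14e-06), and *Mbp* against PFC turned to 0.04. The count against PFC was still 4 with that covariate. *Mobp*, *Cldn11* and *Mbp* were not among those 4 (edgeR adjusted p 0.127, 0.0680 and 0.790), so the calls beside *Mal* were of other members. In the 19 fits that each left out a library, *Mobp* kept its call against STR in 14 and *Cldn11* in 11. Both calls were lost without CB WT replicate 1, PFC WT replicate 1, STR WT replicate 1 or STR WT replicate 2, each of which left 1 call. Both were also lost with the libraries of the comparison alone, with *Mobp* at −0.12 (edgeR adjusted p 0.768) and *Cldn11* at −0.21 (edgeR adjusted p 0.778). The *Cldn11* call against STR was also lost with the replicate block across regions (edgeR adjusted p 0.0513), with correction for GC content and gene length (0.0842) and with no filter beyond 1 count (0.0717). Against PFC 2 calls were left without PFC WT replicate 2. The covariate list holds genes with regional differences of their own, in either direction. In WT mice *Sept4* averaged 797 CPM in CB, 266 CPM in STR and 236 CPM in PFC. *Enpp2* averaged 877 CPM in CB, 5432 CPM in STR and 498 CPM in PFC. Their part in these calls was not tested.

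**Figure D5:**
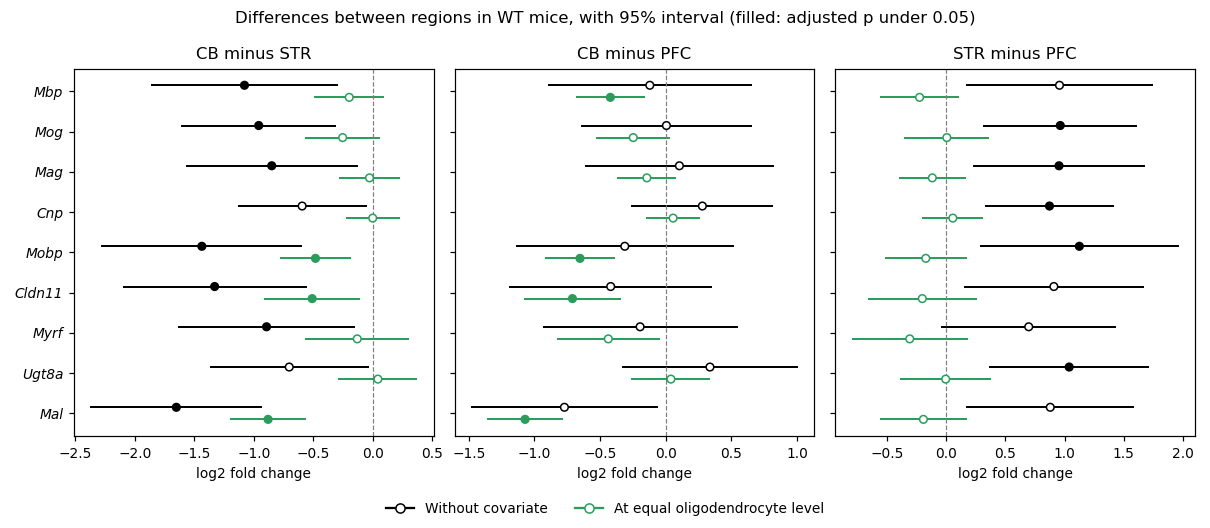
Log2 differences between regions in WT mice with 95% intervals for each member, as CB minus STR, CB minus PFC and STR minus PFC, without a covariate (black) and at equal oligodendrocyte level (green), filled where the adjusted p is under 0.05. Black points of CB minus STR all lie below 0 and those of STR minus PFC all lie above 0, and *Mal* keeps the lowest green value in both comparisons of CB.

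Among other genes of the lineage, the KI comparison called none in any region. That holds for 25 tested genes of mature oligodendrocytes, 11 transcription factors of the lineage, 8 precursor genes, 9 genes of newly formed cells, 7 genes of galactolipid and fatty acid synthesis, 18 of cholesterol synthesis and 13 axonal partners of myelin, by edgeR. The median log2 difference of the 25 mature genes was 0.03 in CB, 0.15 in STR and −0.25 in PFC, and that of the 11 transcription factors was 0.14, 0.39 and −0.08. Genes with an unadjusted p under 0.05 included *Olig1*, a determinant of the lineage, at 0.39 in CB and 0.48 in STR (adjusted p 0.475 and 0.462), and *Car2* at −0.41 in CB and −0.51 in PFC (adjusted p 0.462 and 0.724).

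Part of the immune and stress genes passed the test. For comparison, the KI test called 0.831% of all genes in CB, 0.582% in STR and 0.107% in PFC, in either direction. For the mean over the 3 regions it called 1.35% of all genes. Of 6 genes reported in stressed oligodendrocytes, which are not particular to that cell, 2 rose in CB and 2 in STR by edgeR, and both times they were *B2m* (1.09 in CB, adjusted p 0.0154, and 1.59 in STR, adjusted p 0.00164) and *H2-K1* (1.14, adjusted p 0.0390, and 1.29, adjusted p 0.0313). These encode parts of the class I antigen-presenting complex. *Il33*, an alarm cytokine, had values below 0 in all 3 regions (−0.53, −0.42 and −0.48, smallest adjusted p 0.594), and *H2-D1*, another class I gene, stood at −0.53 in CB and 1.17 in STR (adjusted p 0.561 and 0.144). Over the 3 regions *Serpina3n*, a serine protease inhibitor, rose too (2.47, adjusted p 0.0244). Of 12 microglia markers 9 rose in CB (median 0.89), with 0 called in STR and PFC, and their summed level was 248 to 335 CPM in CB KI and 164 to 170.2 CPM in CB WT. Of 5 Purkinje cell markers *Pcp2* fell in CB (log2 difference −1.16, adjusted p 0.000196). Markers of astrocytes (9 genes), neurons (7), granule cells (4), striatal neurons (4), cortical neurons (3), endothelial cells and pericytes (8) and choroid plexus (8) had 0 calls in any region by edgeR. The part of these cell types in the member levels was not tested.

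The regional order of the members was shared by part of the lineage. Between STR and PFC in WT mice, 13 of 25 mature genes and 5 of 7 galactolipid and fatty acid genes were higher in STR and 0 lower. Of all genes 14.0% were higher. Among the list genes that were higher were *Gjb1* (1.17, edgeR adjusted p 0.00562), a gap junction protein, and *Fa2h* (1.13, edgeR adjusted p 0.0105). In the paired fit of STR and PFC alone, chosen after seeing the data, 9 of 25 and 4 of 7 were higher and 0 lower. Of all 16251 genes in that fit, 2370 were higher and 2649 lower (30.9% called). There *Gjb1* stood at 1.23 (edgeR adjusted p 0.0306) and *Fa2h* at 1.21 (edgeR adjusted p 0.0357). Cholesterol synthesis genes went the other way, with 8 of 18 lower in STR than in PFC (7 in the paired fit, beside 16.4% of all genes lower in the unpaired one) and 13 of 18 lower in CB than in PFC (26.9% of all genes lower). Of the 11 transcription factors, 6 were lower and 3 higher in CB than in STR (28.7% and 27.8% of all genes), with *Olig1* at −1.36 (adjusted p 1.36e-05) and *Sox10*, which acts with Myrf on myelin genes, at −0.94 (adjusted p 0.00243). *St18* (3.45, adjusted p 1.26e-08) and *Myt1* (2.27, adjusted p 1.26e-05) were among the higher.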

How the data were processed

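Messenger RNA was sequenced from cDNA libraries made with a kit that does not keep strand (SMART-Seq v4, Nextera XT). The authors deposited raw counts of reads per Ensembl gene. The submitters' processing notes list bcl2fastq 2.17.1.14, STAR 2.5.2b, HTSeq, DESeq2 1.10.1 and build GRCm38.p3 without roles, and the study's methods name Cufflinks and Cuffdiff. The counting annotation and strand setting are not given in the sources used here. The deposited normalized table was not used.

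Counts were fitted with edgeR 4.0.16 (R 4.3.3; TMM, filterByExpr over the 6 groups, quasi-likelihood test, Benjamini-Hochberg over 16841 genes, threshold 0.05), with all 19 libraries in 1 model of region by genotype. DESeq2 1.42.0 and limma 3.58.1 served as alternatives, and log2 CPM used a prior count of 2. Groups came from the sample labels. Named genes were the 9 members, overlapping genes, the 10 most alike genes and, from each list, genes that passed a reported test, otherwise at most 4 with the smallest p. Which of these are given as examples, and *Enpp2* and *Sept4*, were chosen after their values were seen, and not all are named. The members and lists were chosen with earlier results of these data known. On simulated counts for KI against WT in CB (16576 genes), edgeR recovered 80.6% of 2-fold and 100% of 4-fold changes, with 7 false among 188 calls. The simulation gave every gene the same spread between libraries. In CB the SE of the members ran from 0.240 to 0.366. Recovery at their own spread was not simulated, so these rates do not carry over to the members.

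Same-numbered STR and PFC libraries deviated together within genotype (r 0.194 to 0.487, 6 of 6 over 0.1), so the numbers were taken to pair these regions. CB numbers (2 of 6 over 0.1 with either region) and KI with WT numbers (1 of 3 in each region) were not taken as pairs. Replicates differed beyond counting noise (chi-square per degree of freedom 5.14 to 31.2 over 21 pairs). Nothing states that libraries of different regions came from separate mice, so p-values measure the spread between these libraries.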

Additional observations from a re-analysis of the deposited data

Results flagged for a closer look

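In the group of 4 CB KI libraries, replicate 2 had a *Mobp* to *Cnp* ratio of 0.6999, far from the other 3, which lay between 0.833 and 0.847. Its gap divided by the range of the group was 0.903, above Dixon's 95% critical value for 4 libraries. It was 1 of 13 quantities examined in that group, and chance alone marks about 1 in 20. The cause was not tested.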

How the results depend on the processing

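The tests for a KI effect in CB, STR and PFC called 0 members in all 27 alternative fits of each region. Values near 0 changed sign under some settings. *Myrf* in CB was −0.061 and *Ugt8a* in STR −0.045 with the replicate block within regions, and the averaged *Myrf* was 0.016 with correction for GC content and gene length. *Mog* in CB against PFC in WT was −0.0081 by DESeq2, −0.0090 with its size factors in edgeR, −0.015 with at least 10 counts in every library and −0.0029 with the libraries of the comparison alone. Counts moved as follows. With the oligodendrocyte level as covariate, 1 member was called averaged over regions, 3 for CB against STR, 4 for CB against PFC and 0 for STR against PFC. STR against PFC gave 8 by DESeq2, 3 with its own libraries alone and 0 in the paired fit with the replicate block of STR and PFC, and CB against PFC gave 1 with its own libraries alone. At equal level, the other 8 members as covariate gave 2 for the average, 1 for CB against STR and 0.037 for *Mbp* in CB against PFC, and CB against STR gave 1 with its own libraries alone. For CB against PFC that covariate left the count at 4, but *Mobp*, *Cldn11* and *Mbp* were no longer among the members called. The covariate fits were chosen after seeing the data, and the cause of these moves was not tested. Leaving out each library in turn gave 4 to 9 calls for CB against STR, 0 to 1 for CB against PFC, 0 to 9 for STR against PFC and, at equal level, 0 to 1 for the average, 1 to 3 for CB against STR and 2 to 5 for CB against PFC. For the KI effect in CB the log2 ranges of the genes that changed sign were *Myrf* −0.064 to 0.24 and *Mog* −0.15 to 0.10. For the KI effect in STR the log2 ranges of the genes that changed sign were *Mbp* −0.057 to 0.43, *Mag* −0.021 to 0.49, *Cldn11* −0.10 to 0.45, *Myrf* −0.038 to 0.47, *Ugt8a* −0.31 to 0.31, *Mobp* −0.50 to 0.15 and *Mal* −0.25 to 0.21. For the KI effect in PFC the log2 ranges of the genes that changed sign were *Mog* −0.29 to 0.30, *Mag* −0.52 to 0.32, *Cnp* −0.30 to 0.25, *Ugt8a* −0.41 to 0.092, *Mbp* −0.72 to 0.16, *Cldn11* −0.68 to 0.15 and *Myrf* −0.63 to 0.17. For the averaged KI effect the log2 ranges of the genes that changed sign were *Myrf* −0.10 to 0.16, *Mbp* −0.22 to 0.070, *Mag* −0.052 to 0.23 and *Cldn11* −0.26 to 0.021. For CB against PFC in WT the log2 ranges of the genes that changed sign were *Mog* −0.27 to 0.32, *Mag* −0.20 to 0.64, *Mbp* −0.41 to 0.33, *Mobp* −0.59 to 0.13, *Cldn11* −0.65 to 0.097 and *Myrf* −0.50 to 0.30. With 3 or 4 libraries a group, where an interval covered 0, differences within it could not be told from 0.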
